A study of Mus musculus with 6 samples.

Results

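Voltage-gated calcium channel subunits were examined in messenger RNA from the mouse hippocampus after loss of Dicer1 in adult forebrain neurons. The 10 genes were chosen by symbol: 8 encode pore-forming alpha1 subunits (Cacna1a, Cacna1b, Cacna1c, Cacna1d, Cacna1e, Cacna1g, Cacna1h and Cacna1i) and the others encode the auxiliary alpha2delta subunits Cacna2d1 and Cacna2d3. They are 10 of the 25896 gene symbols counted, and for each gene the counts of 1 transcript were used, the one with the most reads on average in the 6 libraries. All 10 passed the filter on low counts and were tested among 17405 genes. The mice were C57BL/6 males, 3 months old, and all of them carried floxed Dicer1 alleles (Dicer1 flox/flox) and received tamoxifen. WT mice carried no Cre. In addition, Dicer1-ifKO mice had CaMKIIa-creERT2, a recombinase that tamoxifen activates and whose promoter acts in forebrain excitatory neurons, so interneurons, glia and vessel cells keep Dicer1. The hippocampus was taken 3 weeks after tamoxifen, and each genotype had 3 libraries, each from the pooled RNA of 3 mice. Because only Dicer1-ifKO mice had the recombinase, an effect of the transgene and the loss of Dicer1 cannot be told apart. The comparison asks which hippocampal mRNAs differ once Dicer1, which cuts microRNA precursors into mature microRNAs, has been deleted in adult neurons.

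Voltage-gated calcium channels open when the membrane depolarizes and let calcium into the cell, where it triggers transmitter release, shapes firing and signals to the nucleus. The alpha1 subunit forms the pore and gives a channel its class. Cav1 (L-type) channels couple activity to gene expression, Cav2 (P/Q-, N- and R-type) channels drive release at terminals, and Cav3 (T-type) channels open near rest and support burst firing. Alpha2delta subunits bring Cav1 and Cav2 channels to the surface, and some of them, Cacna2d1 among them, bind gabapentin. Beta subunits bind the pore from the cytoplasm, and most neuronal gamma subunits are better known as partners of AMPA receptors.

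Summed over the 1 transcript used per gene symbol, library totals ranged from 11832794 to 20677845 counts. By these totals WT replicate 1 was the shallowest. That library stood apart from the others along transcript length, as described below. Dicer1 mRNA did not pass the test between genotypes (57.8 ± 3.63 CPM in WT and 59.7 ± 2.82 CPM in Dicer1-ifKO, SD, n = 3 each), and its counted transcript does not separate the floxed exons from the rest, so it does not check the deletion. CPM are counts scaled to a common library size (TMM), and log2 fold changes are Dicer1-ifKO over WT. Esr1, the estrogen receptor gene that shares sequence with creERT2, rose from 3.26 to 4.78 CPM in WT to 10.1 to 13.7 CPM in Dicer1-ifKO (log2 fold change 1.58, SE 0.15, Benjamini-Hochberg adjusted p 7.53e-06 in the quasi-likelihood test of edgeR). Slc17a7 (881.3 ± 30.9 CPM in WT, SD, n = 3) and Prox1 (87.1 ± 2.77 CPM), markers of excitatory neurons and dentate granule cells, were present.

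All 10 genes were well above the detection limit, with 520 to 5872 counts in every library, where 3 counts correspond to 0.146 to 0.255 CPM. Per kilobase of transcript, Cacna2d3 had the highest mean level over the 6 libraries, 43.3 CPM per kb, followed by Cacna2d1 with 33.2. The rank of Cacna2d3 rests on its annotated length of 3695 nt, from a model whose coordinates are not identical to those counted. In CPM without length, Cacna2d3 (mean 156.0 in WT) was below Cacna1e (265.7), Cacna2d1 (239.3) and Cacna1a (205.9). Among pore subunits the order was Cacna1a (P/Q-type, 27.0 CPM per kb), Cacna1e (R-type, 21.9), Cacna1h (T-type, 17.5), Cacna1b (N-type, 14.3), Cacna1d (L-type, 10.6), Cacna1g (T-type, 9.88), Cacna1c (L-type, 9.42) and Cacna1i (T-type, 5.05). Neighbours in the lower part of the order lay close together. Cacna1d was above Cacna1g in 5 of 6 libraries, and Cacna1g was above Cacna1c in 4 of 6. Cacna1e was above Cacna1h in 6 of 6 libraries, although their ranges met (17.9 to 23.7 and 15.9 to 18.4 CPM per kb). Cacna1f and Cacna1s, the L-type pores of retina and skeletal muscle, had mean levels of only 0.94 and 0.72 CPM in WT and were not among the 10.

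**Figure D1:**
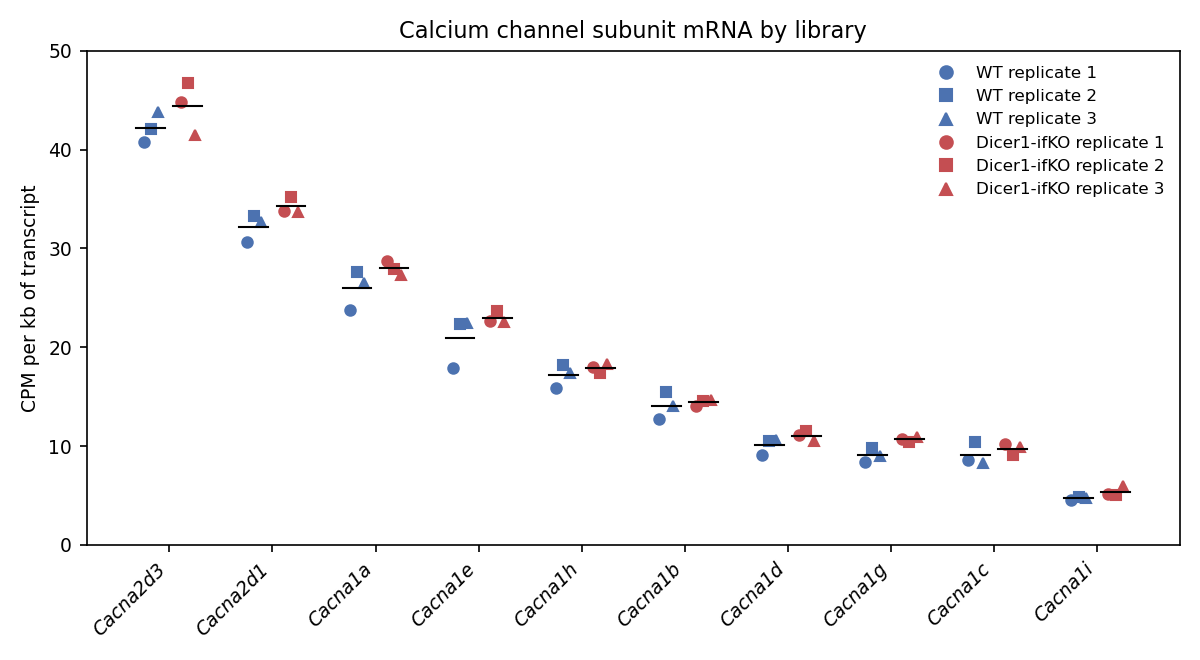
Level of the 10 channel genes in each library, in CPM per kilobase of transcript; each symbol is 1 library (blue WT, red Dicer1-ifKO) and bars are group means. Cacna2d3 is highest, with a mean over all libraries of 43.3 CPM per kb, and Cacna1i lowest, with 5.05.

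When the pore subunits were summed per kilobase, each class kept a similar share of the total in both genotypes. Cav2 genes made up 54.0% to 55.8% of the summed alpha1 level in WT and 53.7% to 55.3% in Dicer1-ifKO, Cav3 genes 27.5% to 28.6% and 27.5% to 29.3%, and Cav1 genes 16.7% to 17.6% and 17.0% to 17.7%. The ranges of the genotypes overlapped for all 3 classes. Within them, the share of Cacna1g was 8.34%, 8.25% and 7.97% in WT replicates 1, 2 and 3 and 8.89%, 8.69% and 9.06% in Dicer1-ifKO replicates 1, 2 and 3, with no overlap. The share of Cacna1b was lower in Dicer1-ifKO, with 12.7%, 12.9% and 12.4% in WT and 11.6%, 12.2% and 12.2% in Dicer1-ifKO, also without overlap. Cacna1h was separated in the same direction, narrowly, at 15.30% to 15.73% in WT and 14.54% to 15.27% in Dicer1-ifKO, and the shares of the other 5 pore genes overlapped. Shares in a library are parts of the same total, so a lower share is not a lower level. Mean levels in WT and Dicer1-ifKO were 136.0 and 139.3 CPM for Cacna1b and 141.2 and 147.5 CPM for Cacna1h. The summed alpha1 level was 101.0, 119.3 and 113.1 CPM per kb in WT replicates 1, 2 and 3. In Dicer1-ifKO replicates 1, 2 and 3 it was 120.6, 119.7 and 120.2. In CPM of single genes, 7.99% of all tested genes lay higher in Dicer1-ifKO without overlap and 8.08% lower. No such rate was taken for shares, and the shares were not tested.

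None of the 10 genes passed an adjusted p of 0.05 in the comparison of Dicer1-ifKO with WT (quasi-likelihood test of edgeR, Benjamini-Hochberg over all genes), and limma-voom and DESeq2 also called 0 of 10. Of all tested genes 0.126% were called higher and 0.0345% lower. All 10 genes had a positive log2 fold change, against 49.0% of all genes, and their median was 0.10, against -0.00 over all genes. Of tested genes with a transcript of at least 7000 nt, as 9 of the 10 have, 75.2% were positive. The 10 genes were chosen with earlier results of these data known, so the shares describe the list and do not test it. At an unadjusted p below 0.05, 3 of the 10 were higher (Cacna1g, Cacna1i and Cacna1d) and 0 lower, where 5.63% of all genes were higher and 4.8% lower. The 3 Dicer1-ifKO values lay above all 3 WT values in 4 of the 10 (Cacna1e, Cacna1g, Cacna1i and Cacna2d1). The same held for 7.99% of all genes and 21.1% of those of at least 7000 nt. In 0 of the 10 they lay below all 3 WT values, against 8.08% of all genes. Without WT replicate 1 the median of the 10 was 0.05 and 9 were positive, against 49.4% of all genes. Without WT replicate 2 the median was 0.15. In bulk RNA, fewer cells of a type and less RNA per cell cannot be told apart.

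**Figure D2:**
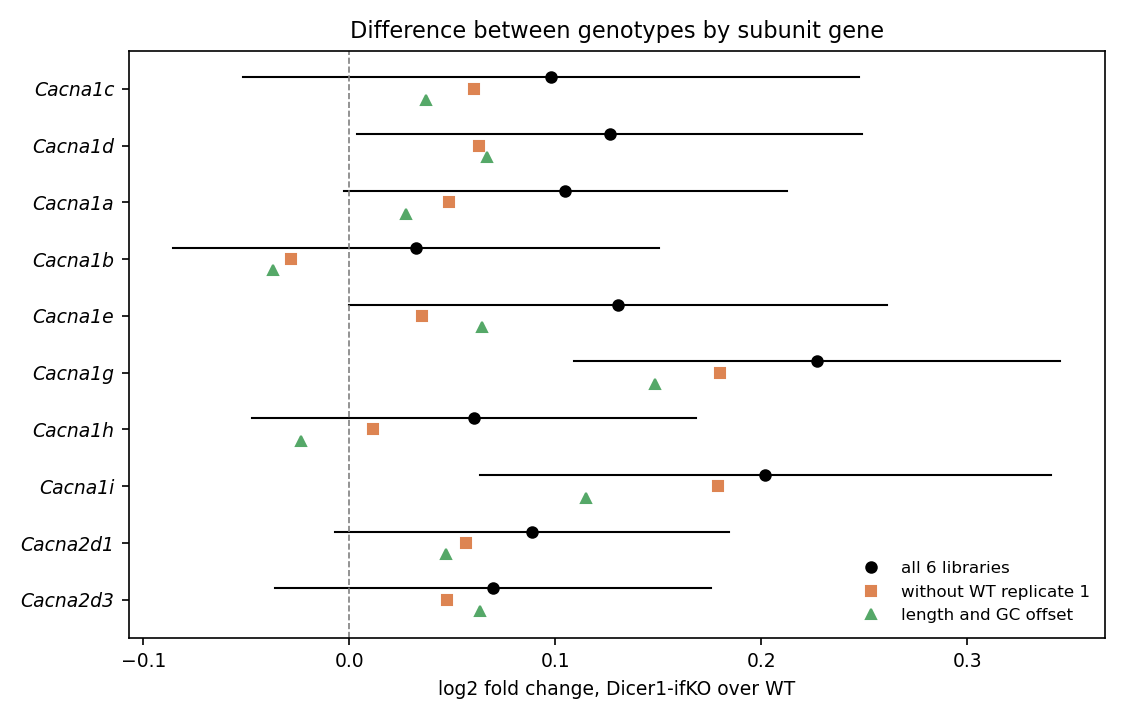
Log2 fold change of each gene, Dicer1-ifKO over WT: circles are all 6 libraries with the 95% confidence interval, squares leave out WT replicate 1, and triangles use the offset for transcript length and GC content. All 10 circles are positive (0.03 to 0.23), Cacna1g has 0.23, 0.18 and 0.15 in the 3 settings, and Cacna1b and Cacna1h reach values below 0.

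The T-type genes held the largest and one of the smallest differences of the set. Cacna1g encodes Cav3.1, the T-type pore known from thalamic relay neurons and also present in the hippocampus (chr11:94408406-94474198, minus strand, GRCm38). It had 68.5, 80.1 and 73.4 CPM in WT replicates 1, 2 and 3 and 87.2, 84.7 and 88.6 CPM in Dicer1-ifKO replicates 1, 2 and 3. Every Dicer1-ifKO library was above every WT library, and the Dicer1-ifKO values were the closer together. The means were 74.0 ± 5.83 and 86.8 ± 1.96 CPM (SD, n = 3), a 1.17-fold difference with a log2 fold change of 0.23 (SE 0.06, 95% confidence interval 0.11 to 0.35). This missed the threshold of the edgeR test (Benjamini-Hochberg adjusted p 0.123), and Cacna1g ranked 92 among the 17405 genes by p. The call depended on the setting. Cacna1g passed with no filter on low counts (adjusted p 0.0265, where 0.481% of genes were called higher) and without WT replicate 2 (log2 fold change 0.29, adjusted p 0.0202, 0.409% called higher), and in none of the other 16 settings. DESeq2 gave an adjusted p of 0.055, and without WT replicate 1 the log2 fold change was 0.18 (adjusted p 0.356).

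Cacna1i encodes Cav3.3, the slowest of the T-type pores (chr15:80287238-80398279, plus strand). Its values were 44.3, 47.3 and 46.4 CPM in WT and 50.5, 49.7 and 58.4 CPM in Dicer1-ifKO, without overlap. Dicer1-ifKO replicate 3 was the highest by a wide margin. The log2 fold change was 0.20 (SE 0.07, Benjamini-Hochberg adjusted p 0.27 in edgeR). It ranged from 0.11 to 0.28 over the 18 other settings and passed in none, and without Dicer1-ifKO replicate 3 it was 0.12. Cacna1h, the Cav3.2 pore found on granule cells and interneurons as well as sensory neurons (chr17:25374285-25433783, minus strand), had a small log2 fold change. It had 130.8, 150.2 and 142.8 CPM in WT and 148.3, 143.2 and 151.0 CPM in Dicer1-ifKO, which overlapped. Its log2 fold change was 0.06 (95% confidence interval -0.05 to 0.17). It was 0.01 without WT replicate 1 and 0.11 without WT replicate 2.

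The L-type pores Cacna1c and Cacna1d, whose calcium entry couples synaptic activity to transcription, both overlapped between genotypes. Cacna1d, the Cav1.3 pore that opens at more negative voltages than Cav1.2 (chr14:30039949-30491156, minus strand), had 78.9, 91.4 and 92.2 CPM in WT and 96.5, 99.9 and 91.3 CPM in Dicer1-ifKO. Only Dicer1-ifKO replicate 3 lay within the WT range. Its log2 fold change was 0.13 (SE 0.06, Benjamini-Hochberg adjusted p 0.46 in edgeR), and 0.06 without WT replicate 1. Cacna1c, the Cav1.2 pore that carries most L-type current in the brain (chr6:118592319-118780324, minus strand), had 66.4, 81.3 and 64.0 CPM in WT and 79.2, 70.8 and 77.1 CPM in Dicer1-ifKO. Its highest library was a WT one. The log2 fold change was 0.10 (95% confidence interval -0.05 to 0.25), with 0.06, 0.22 and 0.03 when WT replicate 1, 2 or 3 was left out.

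None of the Cav2 pores, which supply the calcium for transmitter release, passed the test. Cacna1e (Cav2.3, chr1:154392519-154725920, minus strand) had 227.8, 283.7 and 285.6 CPM in WT and 287.1, 300.5 and 286.7 CPM in Dicer1-ifKO. The groups were separated, but only narrowly, and WT replicate 1 was far below the other libraries. Its log2 fold change was 0.13 (SE 0.06, Benjamini-Hochberg adjusted p 0.48 in edgeR), and 0.04 without WT replicate 1. Cacna1a (Cav2.1, chr8:84415364-84640246, plus strand) had 188.6, 218.8 and 210.4 CPM in WT and 228.0, 221.3 and 216.2 CPM in Dicer1-ifKO. The lowest Dicer1-ifKO value lay within the WT range, and the log2 fold change was 0.10 (SE 0.05, adjusted p 0.497, same test), and 0.05 without WT replicate 1. Cacna1b (Cav2.2, chr2:24603887-24763152, minus strand) had 123.3, 149.0 and 135.6 CPM in WT and 135.3, 141.0 and 141.6 CPM in Dicer1-ifKO. Its Dicer1-ifKO values lay inside the WT range. The log2 fold change of 0.03 (95% confidence interval -0.09 to 0.15) was the lowest of the 10, and it was -0.03 without WT replicate 1 and 0.10 without WT replicate 2.

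The alpha2delta genes, the highest of the set per kilobase, did not pass the test either. Cacna2d1, the main gabapentin-binding subunit of excitatory neurons (chr5:15934691-16374511, plus strand), had 227.8, 247.5 and 242.7 CPM in WT and 251.2, 262.0 and 250.8 CPM in Dicer1-ifKO. The groups did not overlap. The log2 fold change was 0.09 (SE 0.05, Benjamini-Hochberg adjusted p 0.529 in edgeR), and 0.06 without WT replicate 1. Cacna2d3, a subunit with a short annotated transcript of 3695 nt (chr14:28904947-29721864, minus strand), had 150.7, 155.5 and 161.8 CPM in WT and 165.7, 172.7 and 153.3 CPM in Dicer1-ifKO. Here Dicer1-ifKO replicate 3 lay within the WT range, and the log2 fold change was 0.07 (95% confidence interval -0.04 to 0.18). Leaving out Dicer1-ifKO replicate 2 gave 0.03, and leaving out replicate 3 of that genotype gave 0.12.

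Transcript length moved with the comparison, and 9 of the 10 genes have counted transcripts of 7436 to 12697 nt. The 1084 tested genes with a transcript of at least 7000 nt were positive in 75.2% of cases, with a median of 0.06 on the log2 scale, while the 9142 genes under 3000 nt were positive in 41.2%, with a median of -0.03. In 21.1% of the long genes all Dicer1-ifKO values lay above all WT values. Without WT replicate 1, 61.8% of the long genes were positive, with a median of 0.03. The deviation of a gene in a library is its log2 CPM minus its mean over the 6 libraries. The median deviation of the 10 channel genes was -0.15 in WT replicate 1, 0.02 in WT replicate 2 and -0.02 in WT replicate 3, and 0.05, 0.07 and 0.05 in Dicer1-ifKO replicates 1, 2 and 3. All 10 genes were below their own mean in WT replicate 1. Genes of at least 7000 nt had median deviations of -0.11, 0.02 and -0.01 in WT and 0.03, 0.05 and 0.01 in Dicer1-ifKO, and the WT libraries came in the same order as for the channel genes.

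**Figure D3:**
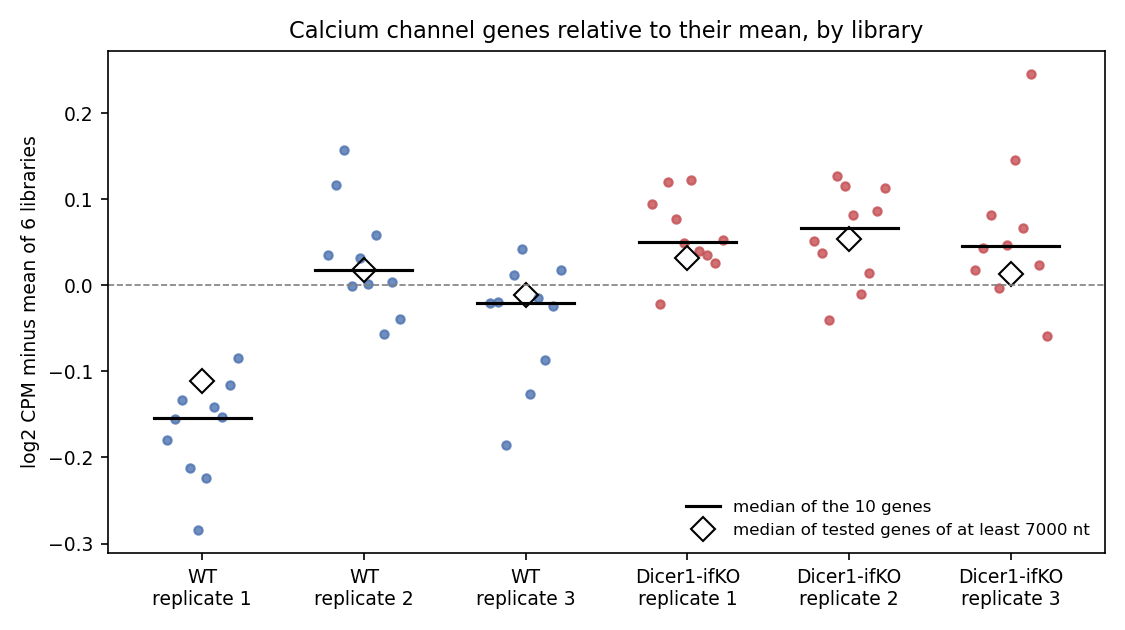
Deviation of log2 CPM from each gene's mean over the 6 libraries, by library; points are the 10 channel genes, bars their median, and diamonds the median of all tested genes with a transcript of at least 7000 nt. WT replicate 1 is lowest for both, at -0.15 for the channel genes and -0.11 for long genes.

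With an offset for transcript length and GC content in each library, the median of the 10 genes was 0.06 and 8 were positive, against 48.5% of all genes. With the offset and without WT replicate 1 it was 0.03, and 7 were positive, against 49.4%. Cacna1g had a log2 fold change of 0.15 under the offset (adjusted p 0.307) and of 0.12, the lowest of its values, with both changes (adjusted p 0.584). Under the offset Cacna1i had 0.11, whereas Cacna1b had -0.04 and Cacna1h -0.02 (all from edgeR, Benjamini-Hochberg adjusted). The part that length and WT replicate 1 have in the positive values was not otherwise tested.

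Several genes have shorter transcripts, and the count of a shorter one was subtracted from that of the long one to give a remainder. The division is exact only where the shorter transcript lies within the long one. In Cacna1b 127 bases and in Cacna2d1 21 bases of the shorter transcript lie outside it. Reads in shared exons were counted by the authors for each transcript, and the 5 genes and their transcripts were chosen after their values were seen. In Cacna1g both parts had similar log2 ratios, although 498 bases of its shorter transcript lie outside the long one. The reads of Cacna1g-007 came to 22.3, 29.7 and 23.6 CPM in WT and 29.3, 30.1 and 30.7 CPM in Dicer1-ifKO, which overlapped slightly. The remaining reads came to 46.2, 50.4 and 49.8 CPM in WT and 57.9, 54.6 and 57.9 CPM in Dicer1-ifKO, without overlap. The log2 ratios of the means were 0.25 and 0.22, and 0.17 and 0.18 without WT replicate 1.

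In the other genes the log2 ratio was higher in the shorter transcript than in the remainder. In Cacna2d1, 3784 of the 4045 remaining bases are 3′ UTR. Its remaining reads were at 153.0, 151.4 and 147.0 CPM in WT and 153.1, 155.4 and 153.5 CPM in Dicer1-ifKO, a log2 ratio of 0.03. The reads of Cacna2d1-204, which holds the coding exons, were at 74.8, 96.1 and 95.6 CPM in WT and 98.1, 106.6 and 97.3 CPM in Dicer1-ifKO. Their log2 ratio was 0.18, but 0.07 without WT replicate 1, whose share of reads in the shorter transcript was 32.8% against 38.8% to 40.7% in the other 5 libraries.

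Cacna1i-002 took 28.3, 32.1 and 30.5 CPM in WT and 34.5, 35.3 and 40.2 CPM in Dicer1-ifKO, a log2 ratio of 0.28 (0.23 without WT replicate 1), and the remaining reads of Cacna1i had 0.04. The short 5′ transcript Cacna1h-004 had 0.34 (0.16 without WT replicate 1) and the remainder of Cacna1h 0.03. Cacna1b-201 had 0.08 (-0.01 without that library) and the remainder of Cacna1b -0.11. In all of these genes but Cacna1g the shorter transcript took its lowest share of reads in WT replicate 1. The differences between parts were not tested.

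**Figure D4:**
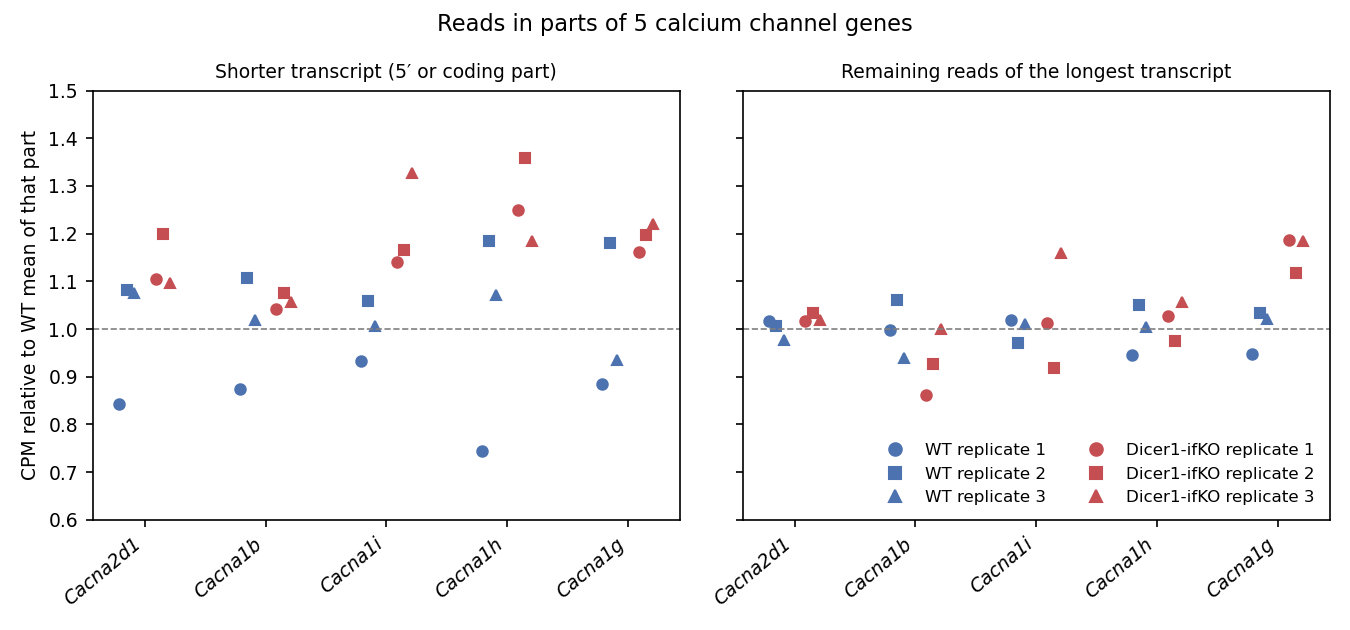
CPM of each library relative to the WT mean (a ratio, no unit) for the reads of the shorter transcript (left) and the remaining reads of the longest transcript (right) of 5 genes; symbols are libraries, blue WT and red Dicer1-ifKO. The remaining reads of Cacna1g separate the genotypes, at 46.2 to 50.4 CPM in WT and 54.6 to 57.9 in Dicer1-ifKO, and those of Cacna2d1 lie close to the WT mean in every library.

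Part of some transcripts overlaps a gene on the opposite strand, and the strand setting of the counting is not given. Gm16183 overlaps 2.89% of the bases of the Cacna1a transcript, Chdh 6.76% of Cacna1d and Tpsg1 1.92% of Cacna1h, and their mean counts were 381.3, 156.8 and 58.2. Reads of each pair in these bases cannot be told apart.

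Dicer makes the microRNAs that pair through a seed (bases 2 to 8) with sites in 3′ UTRs, so the annotated 3′ UTRs of the 10 genes were searched for the complement of 14 seeds of brain and control microRNAs. The sequences of miR-137, miR-134 and miR-125b are shown: matches to miR-137 lie in the T-type genes Cacna1g and Cacna1i, and miR-134 and miR-125b each match 4 of the 10 genes. miR-137 was singled out after the values were seen. The match in Cacna1i lies past the end of Cacna1i-002 (chr15:80395747), among the bases of the remaining reads of that gene. Those reads had a log2 ratio of 0.04, against 0.28 for Cacna1i-002, a difference that was not tested. Mature sequences are from RefSeq, with the seed in capitals; sites are from GENCODE M21 on GRCm38, in the direction of the transcript, with the seed match in capitals.
mmu-miR-137-3p: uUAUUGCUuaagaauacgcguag
Cacna1g, chr11:94408855-94408874, minus strand: tgttgggagaaAGCAATAcg
Cacna1i, chr15:80395742-80395761, plus strand: agggagcagacAGCAATAct
Cacna1d, chr14:30041306-30041325, minus strand: atttgaactgcAGCAATAtc
mmu-miR-134-5p: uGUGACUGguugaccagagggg
Cacna1b, chr2:24605948-24605967, minus strand: attctggttttCAGTCACaa
Cacna1d, chr14:30041727-30041746, minus strand: aaaggtgatgaCAGTCACca
Cacna1e, chr1:154394186-154394205, minus strand: atgtaggtgacCAGTCACag
Cacna2d1, chr5:16372650-16372669, plus strand: agaaatgacatCAGTCACca
mmu-miR-125b-5p: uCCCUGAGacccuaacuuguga
Cacna1b, chr2:24605484-24605503, minus strand: taaatctgactCTCAGGGat
Cacna1c, chr6:118593881-118593891, minus strand: tcCTCAGGGct
Cacna1e, chr1:154396275-154396294, minus strand: ctccctgtgtgCTCAGGGgc
Cacna1i, chr15:80396374-80396393, plus strand: agagcaggaggCTCAGGGtg

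The match AGCAATA was present in 3 of the 10 genes (Cacna1g, Cacna1i and Cacna1d). These were the 3 at an unadjusted p below 0.05, but miR-137 was picked among the 14 seeds after the values were seen. The overlap is therefore no test of miR-137. A match to miR-181a was also present in 3 of the 10 (Cacna1b, Cacna1e and Cacna2d1), none of them at that threshold. Over 13666 tested genes with a 3′ UTR of at least 50 nt, 9.97% held AGCAATA. The median log2 fold change was 0.02 in genes with AGCAATA and -0.01 in genes without it. The match CAGTCAC was present in 4 of the 10 (Cacna1b, Cacna1d, Cacna1e and Cacna2d1) and in 11% of all genes, with medians of 0.01 and -0.00. The match CTCAGGG was present in 4 of the 10 (Cacna1b, Cacna1c, Cacna1e and Cacna1i) and in 14.5% of all genes, with medians of 0.02 and -0.01. Only the transcript's own strand was searched, and a match is a description of the letters, not a site shown to act. The 3′ UTRs differ in length, with a median of 1852.5 nt in the 10 genes and 1079 nt in all. Cacna1g has 739 nt and 1 match to the 14 seeds, Cacna1i 2620 nt and 5, Cacna1e 5874 nt and 5, and Cacna2d1 3837 nt and 6. Cacna1a (538 nt), Cacna1h (818 nt) and Cacna2d3 (322 nt) held none.

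Among the other channel subunits, 15 of 16 were tested, and 12 of them were positive, against 49.0% of all genes. Their median log2 fold change was 0.06. None passed in edgeR, DESeq2 or limma-voom, and 3 were higher at an unadjusted p below 0.05, against 5.63% of all genes. Cacnb1, a beta subunit, had 99.7, 104.0 and 105.7 CPM in WT and 114.1, 105.2 and 118.0 CPM in Dicer1-ifKO, which overlapped by 1 library (log2 fold change 0.12, SE 0.05). Cacnb4, the beta subunit that partners many P/Q-type channels, had 0.09 (SE 0.06), Cacnb2 0.06 and Cacnb3 -0.04. Cacng7 and Cacng8, both of which also bind AMPA receptors, had 0.12 each. Cacng7 was separated, with 99.9 to 111.7 CPM in WT and 113.3 to 114.1 in Dicer1-ifKO. Of the 15, 2 (Cacng7 and Cacnb2) had all Dicer1-ifKO values above all WT values, against 7.99% of all genes. The remaining alpha2delta genes Cacna2d2 and Cacna2d4 had 0.03 and 0.06, at mean levels of 31.8 and 30.9 CPM in WT.

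Of 10 tested partners of presynaptic channels, 7 were positive (median 0.07), against 49.0% of all genes. In edgeR and limma-voom 0 passed, while 4 were higher at an unadjusted p below 0.05 in edgeR, against 5.63% of all genes. Rimbp2, which tethers Cav2 channels to the release machinery, had 112.9, 135.3 and 133.9 CPM in WT and 150.6, 153.2 and 148.9 CPM in Dicer1-ifKO. The groups were well separated and the log2 fold change was 0.24 (SE 0.06, adjusted p 0.11). Rimbp2 passed in DESeq2 (adjusted p 0.0254), and in edgeR with no filter on low counts (0.00572) and without WT replicate 2 (0.0304). Of all genes, 55, 151 and 105 were called in these settings. Without WT replicate 1 Rimbp2 had a log2 fold change of 0.17. Bzrap1, a related tether, had 0.12, Syt1, the calcium sensor of fast release, 0.11 and Rims1, an active zone scaffold, 0.10.

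In the other lists of partners 0 members passed in edgeR, DESeq2 or limma-voom. Over all tested genes 49.0% were positive, and at an unadjusted p below 0.05 5.63% were higher and 4.8% lower. Of 5 tested trafficking inhibitors and STAC proteins 1 was positive (median -0.15). That median is the value of Gem, a gene of low level (mean 1.48 CPM in WT, SE of the log2 fold change 0.27). Stac3 and Stac were also low, at means of 3.29 and 7.36 CPM in WT. The positive gene was Stac2, an adaptor of L-type channels, with 57.5, 60.1 and 66.7 CPM in WT and 75.1, 67.2 and 67.8 CPM in Dicer1-ifKO. Its log2 fold change was 0.18 (SE 0.06), and it was the 1 gene of the list at an unadjusted p below 0.05. Of 8 calmodulin and calcium sensor genes 4 were positive (median -0.00, 0 at an unadjusted p below 0.05), and Calm2 and Calm3 had -0.08 each. Of 6 intracellular release channels 5 were positive (median 0.04, 0 at an unadjusted p below 0.05). Of 7 calcium-activated potassium channels 4 were positive (median 0.06, 1 higher at an unadjusted p below 0.05). Of 12 anchoring and signalling partners of L-type channels 6 were positive (median -0.00, 2 higher and 1 lower at an unadjusted p below 0.05), with Camk2d, a calcium-activated kinase subunit, at 0.21 and Ppp3cb, a calcineurin subunit, at -0.14.

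Markers of cell types and of neighbouring regions are given beside these values because T-type genes are abundant in thalamus. The 14 thalamic markers summed to 197.7 to 209.1 CPM in WT and 195.6 to 208.4 CPM in Dicer1-ifKO. The 13 of them that were tested had a median log2 fold change of 0.02, with 7 positive (49.0% of all genes) and 0 called. At an unadjusted p below 0.05, 2 were higher and 1 lower, against 5.63% and 4.8% of all genes. Excitatory markers (15) had a median of -0.02 and inhibitory markers (12) 0.04, with summed levels of 5729 to 5870 and 1042 to 1114 CPM in WT and 5823 to 6237 and 1079 to 1125 CPM in Dicer1-ifKO. Dentate granule markers (10) summed to 565 to 580 CPM in WT and 513 to 554 CPM in Dicer1-ifKO, with a median of -0.08 and 3 of 10 positive. Of these markers 1, Calb1, fell (log2 fold change -0.27, Benjamini-Hochberg adjusted p 0.0323 in edgeR), while Plk5 had 0.31, with all Dicer1-ifKO values above all WT values, and Prox1 0.01, neither of which passed. Medians of the other lists were -0.00 for astrocytes, -0.03 for oligodendrocytes, -0.06 for their precursors, -0.11 for microglia, 0.09 for endothelial cells, -0.02 for striatum and 0.11 for erythrocytes. No listed marker was at 0 in all libraries. The part of cell composition in the channel values was not tested.

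The mean deviation of the 10 genes over the 6 libraries was -0.17, 0.03 and -0.04 in WT replicates 1, 2 and 3 and 0.06 in each Dicer1-ifKO library. Among 9636 other genes whose mean log2 CPM reached 4, those with the most similar profiles included Shank1, Trip12, Zzef1 and Lrp1, with Pearson's r of 0.992 to 0.998 over the 6 libraries, and 368 genes had r of at least 0.9. These 6 points share library, depth and the low value of WT replicate 1. The log2 fold changes of Shank1, Trip12, Zzef1 and Lrp1 were 0.17, 0.09, 0.10 and 0.16.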

How the data were processed

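Each library was made from total RNA treated with DNase and prepared with a stranded mRNA kit, per the labels' protocols. The submitters' processing notes name GRCm38 and the tools TopHat2 2.0.6, Bowtie2 2.0.5, SAMtools 0.1.18, CASAVA 1.8.2 and DESeq2. Not given in the sources used here are the read counter, annotation release and strand setting. The deposited tables list 76938 transcripts with a raw count, and reads in shared exons were counted for each transcript. The deposited normalised values (signal, scaled counts, per the file headers) were not used. The test was the quasi-likelihood F-test of edgeR 4.0.16 (R 4.3.3) on the counts of 1 transcript per symbol, after TMM scaling and filterByExpr (minimum count 10), with genotype as its term; p-values were Benjamini-Hochberg adjusted over 17405 genes, with 0.05 as the threshold. Fold changes use a prior count of 0.125. Lengths and 3′ UTRs come from GENCODE M21, in which 84.2% of transcripts had identical coordinates. Lengths of Cacna1d and Cacna2d3 come from GENCODE models of the same symbol whose coordinates overlap those of the files without being identical. Replicates of a genotype are pools of different mice and differed by more than sampling noise (chi-square per degree of freedom 1.76 to 4.36); p-values rest on 3 pools per genotype. edgeR's common coefficient of biological variation came to 0.0464. The test was tried on simulated counts with known fold changes. Named genes are the 10 channel genes, the other subunits, up to 4 genes of smallest p in each partner list, Dicer1, Esr1 and the 5 most similar profiles; Prox1, Slc17a7 and Calb1 are cell type markers. Some genes under this rule are not reported here. The genes and lists were chosen with earlier results of these data known. Alternatives were other scalings, DESeq2 1.42.0, limma-voom (limma 3.58.1), no filter, each library left out, a replicate block, a length and GC offset (mgcv 1.9.3), and other transcript choices.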

Additional observations from a re-analysis of the deposited data

How the results depend on the processing

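The median log2 fold change of the 10 genes was 0.10 with all libraries and 0.05 to 0.15 with each library left out, lowest without WT replicate 1 and highest without WT replicate 2; it was 0.0299 with the length and GC offset and without WT replicate 1. The number of the 10 called was 0, but 1 (Cacna1g) with no filter on low counts and 0 to 1 with a library left out. Of 178 values of the 10 genes under 18 alternatives 170 were positive. These values are refits of the same 6 libraries, most with WT replicate 1 kept, and are not independent of one another. Over all genes 28 were called. The count was 55 with DESeq2, 151 with no filter, 7 for sums over transcripts, 47 when every transcript was tested, 15 with the replicate block and the offset together, and 6 to 105 with a library left out. Without WT replicate 1, Cacna1b had -0.0285. The offset gave -0.0373 for Cacna1b, -0.0233 for Cacna1h, -0.0175 for Cacna2d2 and -0.0156 for Dicer1. The offset without WT replicate 1 gave -0.068 for Cacna1b, -0.0591 for Cacna1h, -0.0154 for Cacna1a, -0.0071 for Cacna2d2, -0.0023 for Dicer1 and -0.0186 for Bzrap1. The cause of these reversals was not tested.

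Same-numbered WT and Dicer1-ifKO libraries did not deviate together (correlations -0.067, 0.073 and -0.111 over 15427 genes), so the numbers were not taken as pairs. With the replicate block the median was 0.10 and 22 genes were called. With the block and the offset the median was 0.05, and Cacna1b had -0.035, Cacna1h -0.0215, Cacna2d2 -0.0186 and Dicer1 -0.0147.

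The precision is limited by 3 pools per genotype, with SE of 0.05 to 0.07 for the 10 genes on the log2 scale. Spearman's rho of fold change with transcript length was 0.242 over 14647 genes, and genes do not count as independent replicates. The deviations of single libraries had rho of -0.32 to 0.095 with length in WT and 0.092 to 0.183 in Dicer1-ifKO. These ranges overlapped narrowly, and the lowest value was that of WT replicate 1. The offset therefore acts along a trend that differs between libraries. Fold change also went with length, but a difference of the trend between genotypes was not tested.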
